A study of Mus musculus with 6 samples.

Results

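Peroxisome and fatty acid β-oxidation genes were examined in RNA from MA-10 and STARKO1 cells. Members were taken by symbol: the peroxins (Pex genes), acyl-CoA oxidases (Acox), acyl-CoA dehydrogenases (Acad), the hydratase, dehydrogenase, thiolase and isomerase genes (Ech, Hadh, Acaa, Eci, Decr, Ehhadh, Hsd17b4, Scp2), carnitine acyltransferases (Cpt1, Cpt2, Crat, Crot), acyl-CoA synthetases (Acsl), acyl-CoA thioesterases (Acot), electron transfer genes (Etfa, Etfb, Etfdh) and the peroxisomal ABC transporters (Abcd). The rule found 75 of the 14774 genes in the deposited table, and 72 of them had enough counts to be tested. Acot3, Acot5 and Acot10 did not pass the filter on low counts. MA-10 is a mouse tumor Leydig cell line and was sequenced as wild type cells. STARKO1 is a single clone of MA-10 cells, grown from 1 sorted cell after CRISPR/Cas9 was aimed at exon 2 of Star, the gene of the cholesterol transport protein STAR. Neither cell line was treated, and total RNA of 3 libraries of each was sequenced with a stranded kit. Nothing in the labels says that the libraries came from separate cultures, so p-values measure the spread between these libraries, which may be technical.

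Fatty acids are first activated to acyl-CoA and are then shortened at the β-carbon by repeated cycles of oxidation, hydration, a second oxidation and thiolysis. Mitochondria oxidize fatty acids that enter as carnitine esters, and their first step hands electrons to the electron transfer flavoprotein. Peroxisomes take very long and branched chains through ABC transporters, and their first step is made by oxidases that pass electrons to oxygen and form hydrogen peroxide. Peroxisomal enzymes are made in the cytosol and imported by the peroxins. In Leydig cells, acyl-CoA metabolism lies beside the handling of cholesterol and lipid droplets for steroid synthesis.

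The libraries held between 14114349 and 19530054 counts. Levels are given as CPM, the counts scaled to a common library size by the TMM method. Star, the targeted gene, was at 60.9, 109 and 61.4 CPM in MA-10 replicates 1, 2 and 3 and at 2.06, 2.71 and 2.02 CPM in STARKO1 replicates 1, 2 and 3, which is -5.09 as a log2 fold change (standard error 0.331, edgeR adjusted p = 0.00121). All 11 Leydig and steroidogenic markers were in the table, with a summed level between 2213 and 2899 CPM in MA-10 and between 1863 and 1952 CPM in STARKO1 libraries. This list includes Star, and single markers moved in both directions. Hsd3b1 fell (log2 fold change -2.52, standard error 0.219, edgeR adjusted p = 0.00268). Cyp11a1, Hsd3b6 and Lhcgr were lower without overlap but not called (edgeR adjusted p = 0.067, 0.0568 and 0.144). Cyp17a1, Fdxr and Nr5a1 were higher without overlap and also not called (edgeR adjusted p = 0.0949, 0.0878 and 0.189). Of the Sertoli cell markers 0 of 5 were in the table, and the germ cell, macrophage and fibroblastic lists each summed to at most 9.85 CPM in any library. Of the endothelial list, Cdh5 and Pecam1 but not Kdr were in the table. The list summed to between 26.4 and 41.5 CPM in MA-10 and between 118 and 124 CPM in STARKO1 libraries, nearly all of it Cdh5. Cdh5 rose (log2 fold change 1.84, standard error 0.204, edgeR adjusted p = 0.00596), and Pecam1 was not called (edgeR adjusted p = 0.336). The part of this list in the results was not tested. In bulk RNA, fewer cells of a type and less RNA per cell cannot be told apart.

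MA-10 replicate 1 stood apart from the other two MA-10 libraries. Across 8538 genes, Pearson's r of its log2 CPM was 0.802 with MA-10 replicate 2 and 0.874 with MA-10 replicate 3, but between 0.949 and 0.955 with the STARKO1 libraries. It was 0.974 between MA-10 replicates 2 and 3 and between 0.995 and 0.996 among the STARKO1 libraries. The genes share their libraries and are not independent, so these values are a description. The members followed the same pattern, since the level in MA-10 replicate 1 was nearer to the STARKO1 mean than to the mean of MA-10 replicates 2 and 3 for 46 of the 72 tested members (63.9%) and for 69.7% of all tested genes. The median SD of log2 level among members was 0.368 between MA-10 libraries and 0.0671 between STARKO1 libraries, and the SD was larger in MA-10 cells for 67 members. Counts of members called, and the values of many single members, are therefore given with and without MA-10 replicate 1.

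**Figure D1:**
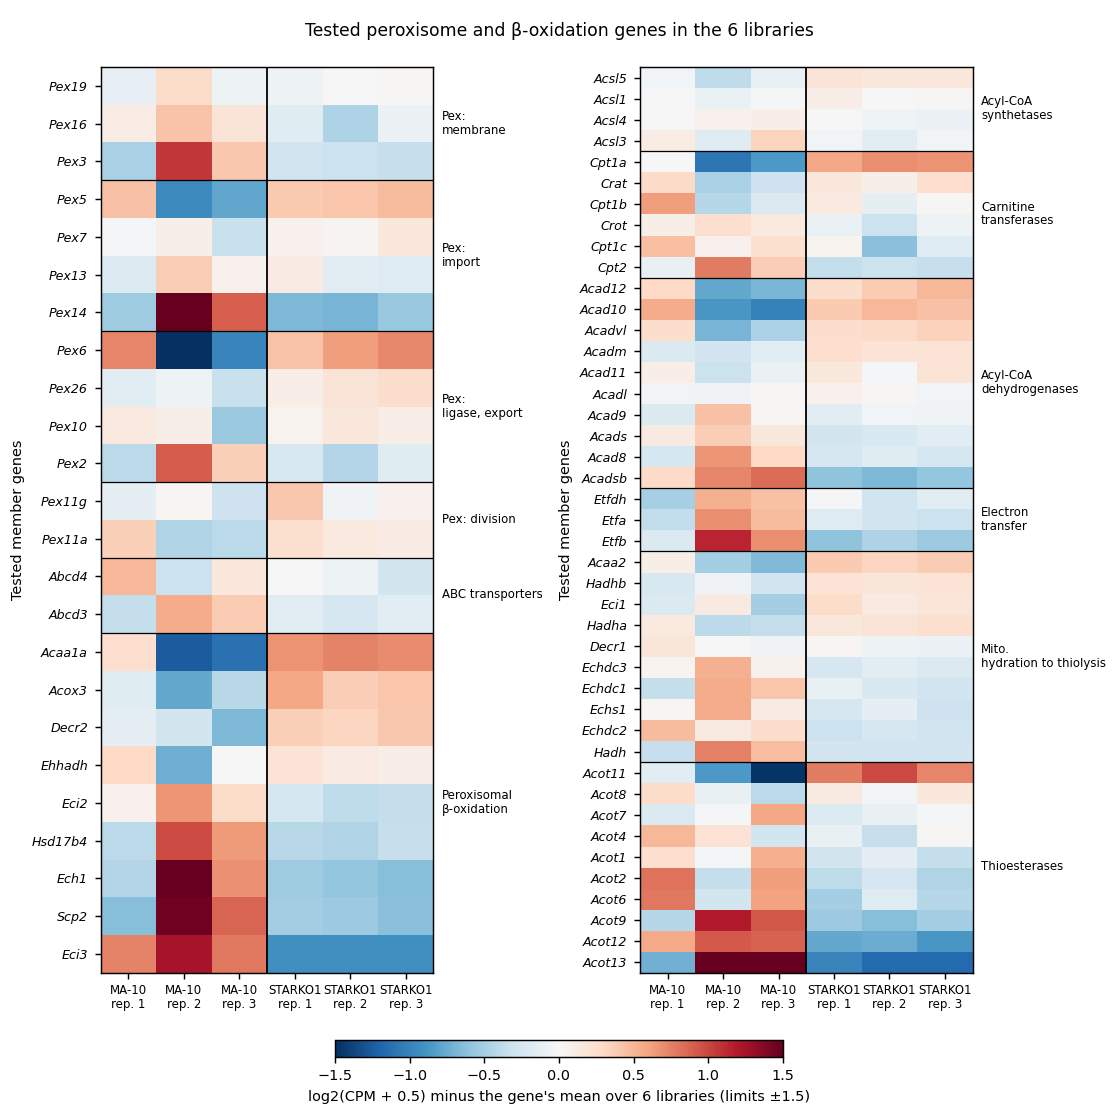
Level of 67 of the tested members in the 6 libraries, as log2(CPM + 0.5) minus the gene's mean over the libraries, on a colour scale from -1.5 to 1.5. Rows are members grouped by role and columns are libraries. The first column, MA-10 replicate 1, resembles the STARKO1 columns in many rows, as it was nearer to the STARKO1 mean for 46 of the 72 tested members.

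The question of the comparison was which peroxisomal and β-oxidation genes differ between MA-10 cells and the STARKO1 clone. With a single clone, the loss of STAR and other differences of that clone cannot be told apart. Of the 72 tested members, 5 passed the threshold of 0.05 on the adjusted p (6.94%), against 9.04% of all 11939 genes tested. Cpt1a and Acox3 rose in STARKO1 cells (2 members, with 4.3% of all genes called higher), whereas Acadsb, Acot12 and Eci3 fell (3 members, with 4.74% of all genes called lower). The share of members was thus near that of genes in general. At an unadjusted p under 0.05, 30 members differed (41.7%, beside 37.6% of all genes), of which 10 were higher (all genes: 15%) and 20 lower (all genes: 22.7%). The 3 libraries of one cell line lay entirely above those of the other for 32 members (44.4%, beside 42.5% of all genes), of which 14 were higher (all genes: 21.5%) and 18 lower (all genes: 21%) in STARKO1 cells. The median log2 fold change was -0.19 over the members and -0.05 over all genes, and it stayed at -0.19 with Eci3 set to its bound. Without MA-10 replicate 1, 48 members passed the threshold (66.7%, beside 65.7% of all genes), of which 23 were higher (all genes: 34%) and 25 lower (all genes: 31.7%), and the 5 called with all libraries were among them in the same direction. By role, that fit called 8 of 10 peroxisomal β-oxidation genes (3 higher, 5 lower) and 8 of 10 acyl-CoA dehydrogenases (5 higher, 3 lower). It called 9 of 10 genes grouped under the later mitochondrial steps (4 higher, 5 lower) and 4 of 10 thioesterases (1 higher, 3 lower). It also called 4 of 6 carnitine acyltransferases (3 higher, 1 lower) and 1 of 4 acyl-CoA synthetases, which was higher. When any 1 of the STARKO1 libraries was left out, 0 members passed with edgeR, beside between 0.73% and 1.11% of all genes. DESeq2 on all 6 libraries called 21 members (29.2%), beside 28.4% of all genes.

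**Figure D2:**
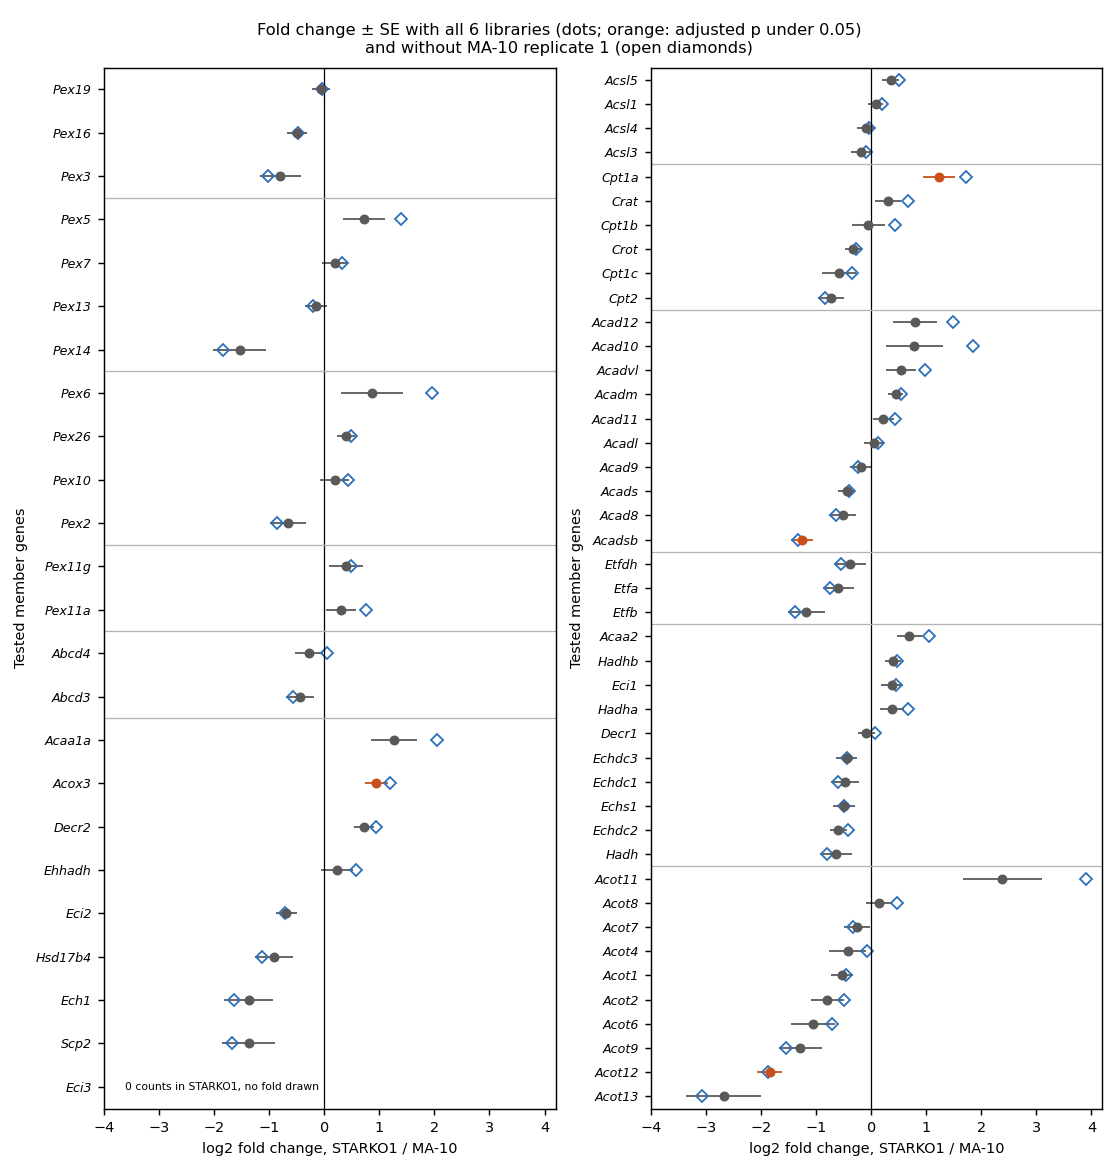
Log2 fold change (STARKO1 over MA-10) of 67 tested members, grouped by role. Dots with bars are estimates ± standard error from all 6 libraries, orange where the adjusted p was under 0.05, and open diamonds are estimates without MA-10 replicate 1. Orange marks Cpt1a to the right of 0 and Acox3 likewise, and Acadsb and Acot12 to the left, while Eci3 had 0 counts in STARKO1 cells and has no point.

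Of the members that rose, Cpt1a had the larger log2 fold change (chr19:3322334-3385733, build GRCm38), the carnitine palmitoyltransferase of the outer mitochondrial membrane that controls entry of long-chain fatty acids. It was measured at 72.5, 34.2 and 40 CPM in MA-10 replicates 1, 2 and 3 and at 109, 119 and 117 CPM in STARKO1 replicates 1, 2 and 3. The cell lines did not overlap, and MA-10 replicate 1 was the highest of the MA-10 libraries. The means were 48.9 ± 20.7 and 115 ± 5.47 CPM (SD, n = 3 each), and edgeR estimated the log2 fold change at 1.23 (standard error 0.296, adjusted p = 0.0494). Without MA-10 replicate 1 it was 1.72 (edgeR adjusted p = 2.81e-05), but leaving out any other library ended the call, with an adjusted p of up to 0.191, and it passed in 2 of 7 other settings.

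Acox3 (chr5:35583040-35615352) encodes a peroxisomal oxidase of branched-chain acyl-CoA. Its level was 8.07, 5.20 and 6.78 CPM in MA-10 cells and 14, 12.0 and 12.5 CPM in STARKO1 cells, so that all STARKO1 libraries were higher. The means of 6.69 ± 1.44 CPM and 12.8 ± 1.05 CPM (SD, n = 3 each) gave a log2 fold change of 0.94 (standard error 0.210, edgeR adjusted p = 0.043). It was 1.19 without MA-10 replicate 1 (edgeR adjusted p = 0.000562), and the call was lost when any other library was left out, with an adjusted p of up to 0.182.

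Acadsb (chr7:131410601-131448944) encodes the mitochondrial dehydrogenase of short branched-chain acyl-CoA, which acts in isoleucine breakdown. It was at 214, 292 and 315 CPM in MA-10 cells and at 115, 110 and 117 CPM in STARKO1 cells. Every MA-10 library was higher, MA-10 replicate 1 being the lowest of them. The means were 274 ± 53.0 and 114 ± 3.50 CPM (SD, n = 3 each), and the log2 fold change was -1.26 (standard error 0.200, edgeR adjusted p = 0.0171). It was -1.33 without MA-10 replicate 1 (edgeR adjusted p = 3.55e-05), and the call was lost without MA-10 replicate 3 or any STARKO1 library, with an adjusted p of up to 0.137. The gene overlaps Fgfr2 on the opposite strand without sharing exon bases, and Fgfr2 was between 6.6 and 14.4 CPM in MA-10 and between 24.2 and 29.3 CPM in STARKO1 libraries.

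Acot12 (chr13:91741512-91786148) encodes a cytosolic acetyl-CoA thioesterase that, like the product of Acot11, carries a START domain, the lipid-binding fold named after STAR. The 6 libraries gave 4.98, 6.5 and 6.34 CPM in MA-10 cells and 1.68, 1.71 and 1.52 CPM in STARKO1 cells. The STARKO1 libraries were close to each other and all below the MA-10 libraries. The means of 5.94 ± 0.836 and 1.63 ± 0.103 CPM (SD, n = 3 each) correspond to a 3.64-fold lower level, or -1.85 as a log2 fold change (standard error 0.227, edgeR adjusted p = 0.00779). This was the lowest adjusted p among the members, and Acot12 alone among them passed with the replicate number as a block (edgeR adjusted p = 0.0454), a fit that called 1.96% of all genes. Leaving out any STARKO1 library ended the call, with an adjusted p of up to 0.0773.

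Eci3 (chr13:34946614-34963810) encodes a peroxisomal enoyl-CoA isomerase, and lies beside Eci2. It had 19, 20 and 13 counts in MA-10 replicates 1, 2 and 3 and 0 counts in each STARKO1 library. It was at 1.32 ± 0.358 CPM (SD, n = 3) in MA-10 cells, at least 7.48-fold higher than the 0.177 CPM that 3 counts would make in the shallowest STARKO1 library (edgeR adjusted p = 0.0133). The call held without MA-10 replicate 1 or 2 and was lost without any other library, with an adjusted p of up to 0.0751. Eci2, its more abundant neighbour, was at 151, 228 and 175 CPM in MA-10 and 120, 111 and 113 CPM in STARKO1 libraries. The Eci2 groups did not overlap, but its difference did not pass (log2 fold change -0.69, standard error 0.199, edgeR adjusted p = 0.0674). Reads that fit both genes may have been divided by the counting, so the low Eci3 counts are uncertain.

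**Figure D3:**
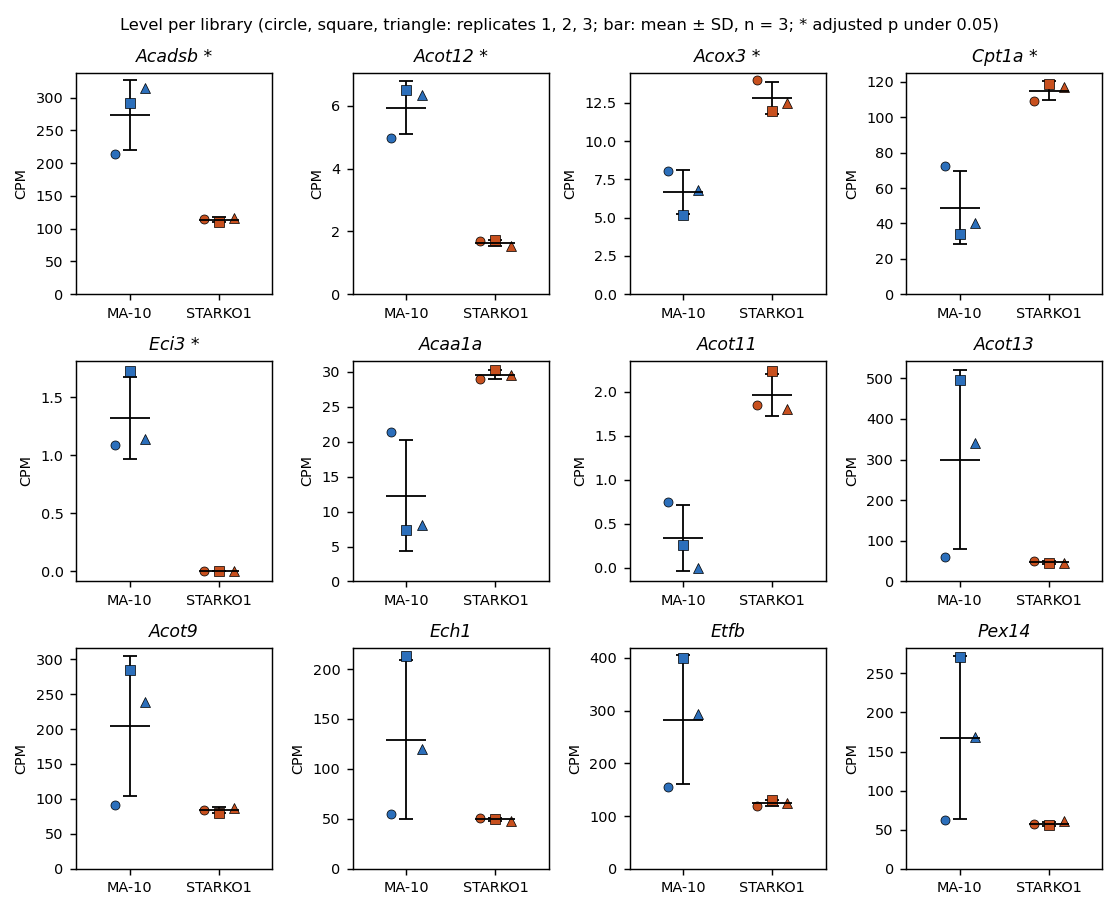
CPM of the 5 differentially expressed members (marked with an asterisk) and of the 7 uncalled members whose cell lines did not overlap and whose log2 fold change was at least 1 in size. Circles, squares and triangles are replicates 1, 2 and 3, and bars give the mean ± SD (n = 3). In Acot13, Acot9, Ech1, Etfb and Pex14 the circle of MA-10 replicate 1 lies near the STARKO1 points.

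The 250 bases upstream of the RefSeq start (GRCm38.p6) are shown for both members that rose and for Acot12, the member with the lowest adjusted p, with any copy of the nuclear receptor half-site AGGTCA in capitals, on either strand (TGACCT where it lies on the other strand). Cpt1a holds 1 copy, 94 bases before the start (chr19:3323051-3323300, plus strand), Acot12 holds 1 copy, 110 bases before it (chr13:91741271-91741520, plus strand), and Acox3 holds 0 (chr5:35582784-35583033, plus strand).
Cpt1a: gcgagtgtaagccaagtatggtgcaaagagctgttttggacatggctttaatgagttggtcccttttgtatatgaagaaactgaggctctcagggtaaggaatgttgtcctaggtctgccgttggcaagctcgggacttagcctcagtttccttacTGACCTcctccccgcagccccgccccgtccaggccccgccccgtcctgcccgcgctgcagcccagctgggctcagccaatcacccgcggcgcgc
Acox3: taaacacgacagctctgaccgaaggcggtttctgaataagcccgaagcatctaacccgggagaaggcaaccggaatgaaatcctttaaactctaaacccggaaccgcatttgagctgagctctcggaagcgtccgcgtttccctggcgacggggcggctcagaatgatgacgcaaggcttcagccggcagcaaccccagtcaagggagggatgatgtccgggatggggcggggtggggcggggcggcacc
Acot12: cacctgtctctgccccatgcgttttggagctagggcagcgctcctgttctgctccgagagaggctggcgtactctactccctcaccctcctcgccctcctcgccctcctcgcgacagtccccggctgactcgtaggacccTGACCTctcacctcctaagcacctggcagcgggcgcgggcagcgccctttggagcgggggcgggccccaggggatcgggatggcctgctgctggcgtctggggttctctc
The windows of Acadsb and Eci3, which also fell, hold 0 copies. Of the 5 called members, 1 of the 2 that rose and 1 of the 3 that fell thus had a copy. It was present in 11 of the 59 members with a promoter in the RefSeq table (18.6%) and in 15.8% of all 27025 genes there. The direct repeat AGGTCANAGGTCA, the form bound by PPAR with RXR, was found in 0 of the 59 members and 0.0407% of all genes, and the half-site preceded by CA, the form bound by NR5A1, in 0 of the 59 members and 1.51% of all genes. The longer forms contain the half-site. A match of letters is a description of the window only.

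The peroxins, which build peroxisomes and import their enzymes, gave 0 calls among 16 tested genes with edgeR (all genes: 9.04%). Of the 16, 3 had an unadjusted p under 0.05 (all genes: 37.6%), while DESeq2 called 1, Pex14 (all genes: 28.4%). Without MA-10 replicate 1, 9 of the 16 passed, 5 higher and 4 lower, in a fit that called 65.7% of all genes. Together the Pex genes summed to between 365 and 572 CPM in MA-10 libraries and between 356 and 377 CPM in STARKO1 libraries. The peroxins that passed without that library thus went in both directions.

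Among the peroxins that place membrane proteins, Pex19, the cytosolic chaperone of membrane proteins, was at 45.4, 59.8 and 46.7 CPM in MA-10 and 46.8, 49.2 and 50 CPM in STARKO1 libraries. These ranges overlapped, and the log2 fold change was -0.06 (standard error 0.166), with a sign that changed under library size, upper quartile and unfiltered fits. Pex3, the membrane anchor for Pex19, was at 11.7, 35.0 and 22 CPM in MA-10 and between 12.9 and 13.4 CPM in STARKO1 libraries. Its log2 fold change was -0.80 (edgeR adjusted p = 0.159), and -1.03 without MA-10 replicate 1 (edgeR adjusted p = 0.00128). For Pex3, MA-10 replicate 1 was below the STARKO1 libraries and the other two MA-10 libraries were above them. Pex16 was between 22.8 and 28.6 CPM in MA-10 and between 15.1 and 19.8 CPM in STARKO1 libraries, with a log2 fold change of -0.50 (edgeR adjusted p = 0.0958).

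Of the import receptors and docking proteins, 0 of 4 passed with edgeR (all genes: 9.04%). An unadjusted p under 0.05 was found for 1 (all genes: 37.6%), while DESeq2 called 1 (all genes: 28.4%). Pex5, the receptor for the C-terminal targeting signal that most matrix enzymes carry, was at 84.3, 31.7 and 35.8 CPM in MA-10 and 81.4, 83.0 and 86.2 CPM in STARKO1 libraries. MA-10 replicate 1 lay within the STARKO1 range. The log2 fold change was 0.72 (standard error 0.375, edgeR adjusted p = 0.197) with all libraries and 1.39 (edgeR adjusted p = 4.53e-05) without MA-10 replicate 1. Pex14, the docking protein of the import pore, showed the opposite order, with 62.4, 271 and 169 CPM in MA-10 and 56.7, 55.4 and 60.8 CPM in STARKO1 libraries. The Pex14 groups did not overlap, although MA-10 replicate 1 came within a few CPM of the STARKO1 libraries. The log2 fold change was -1.54 (standard error 0.480, edgeR adjusted p = 0.0768), and -1.84 without MA-10 replicate 1 (edgeR adjusted p = 6.76e-05). The annotated gene Gm17029 covers 28.3% of the Pex14 exon bases on the opposite strand and was at most 0.781 CPM. Pex7, the receptor for the N-terminal targeting signal, was between 2.20 and 3.31 CPM in all libraries, with a log2 fold change of 0.19 (edgeR adjusted p = 0.562).

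The ubiquitin ligase and receptor export genes return import receptors to the cytosol. Pex6, an AAA ATPase of the export complex, was at 38.9, 7.81 and 11.4 CPM in MA-10 and 31.4, 36.1 and 38.5 CPM in STARKO1 libraries. Here MA-10 replicate 1 was above the STARKO1 libraries by a narrow margin, and the log2 fold change moved from 0.86 (standard error 0.562, edgeR adjusted p = 0.289) to 1.96 without it (edgeR adjusted p = 7.79e-05). Pex2, a RING subunit of the ligase, was at 16.7, 42.2 and 28.7 CPM in MA-10 and between 16.3 and 19.6 CPM in STARKO1 libraries. Its log2 fold change was -0.67 (edgeR adjusted p = 0.175), and -0.86 without MA-10 replicate 1 (edgeR adjusted p = 0.00222). Pex11a, whose product elongates peroxisomes before division, was between 4.34 and 7.96 CPM in MA-10 and between 6.74 and 7.31 CPM in STARKO1 libraries, which overlapped (log2 fold change 0.30, edgeR adjusted p = 0.433). Pex10, Pex11g, Pex13 and Pex26 had log2 fold changes between -0.16 for Pex13 and 0.39 for Pex26 and were not called (edgeR adjusted p from 0.126 for Pex26 to 0.604 for Pex10).

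Peroxisomal β-oxidation held 2 of the 5 differentially expressed members, Acox3 and Eci3, out of 10 tested, and 8 of the 10 had an unadjusted p under 0.05 (3 higher, 5 lower). Of all genes, 9.04% were called and 37.6% had such a p (15% higher, 22.7% lower). Of the bifunctional enzymes that carry out hydration and the second oxidation, Ehhadh was between 4.68 and 10.1 CPM in MA-10 and between 8.76 and 9.42 CPM in STARKO1 libraries. Hsd17b4 (chr18:50128201-50196269) was at 180, 471 and 372 CPM in MA-10 and 179, 175 and 187 CPM in STARKO1 libraries. For Hsd17b4, MA-10 replicate 1 lay within the STARKO1 range, and the log2 fold change of -0.92 (edgeR adjusted p = 0.106) became -1.13 without it (edgeR adjusted p = 0.000118).

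The thiolases of the pathway, Acaa1a and Scp2, did not pass with all libraries. Acaa1a was at 21.4, 7.29 and 8.01 CPM in MA-10 and 28.9, 30.3 and 29.6 CPM in STARKO1 libraries, without overlap, and its log2 fold change was 1.26 (standard error 0.415, edgeR adjusted p = 0.0832), or 2.04 without MA-10 replicate 1 (edgeR adjusted p = 1.6e-05). Scp2, whose transcripts encode a thiolase and the sterol carrier protein, was at 53.8, 233 and 155 CPM in MA-10 and 58.3, 57.4 and 54.2 CPM in STARKO1 libraries. Its log2 fold change was -1.38 (standard error 0.477, edgeR adjusted p = 0.0916), or -1.68 without MA-10 replicate 1 (edgeR adjusted p = 6.4e-05). Thus 1 MA-10 library stood between the groups for Acaa1a and below all STARKO1 values for Scp2. Among the accessory enzymes for unsaturated chains, Ech1 was at 54.7, 213 and 120 CPM against 51.3, 49.5 and 47.8 CPM (log2 fold change -1.38, standard error 0.448, edgeR adjusted p = 0.0818). The dienoyl-CoA reductase gene Decr2 was at 16.1, 14.5 and 10.9 CPM against 22.8, 22.2 and 23.5 CPM, without overlap (log2 fold change 0.72, standard error 0.188, edgeR adjusted p = 0.0592), and it passed when the fit allowed for gene length.

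The ABC transporters carry acyl-CoA into peroxisomes, except Abcd4, which acts in lysosomal export of cobalamin. Abcd3 was at 78.5, 149 and 132 CPM in MA-10 and 89.9, 84.5 and 89.7 CPM in STARKO1 libraries, and Abcd4 was between 5.03 and 9.28 CPM in all 6. Both overlapped between the cell lines, and neither passed the test with all libraries (edgeR adjusted p = 0.228 and 0.438). Without MA-10 replicate 1 Abcd3 passed and Abcd4 did not (edgeR adjusted p = 0.0017 and 0.878).

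The acyl-CoA synthetases make the first activation step. With edgeR and DESeq2, 0 of 4 were called, beside 9.04% and 28.4% of all genes. With edgeR 0 had an unadjusted p under 0.05, whereas with DESeq2 Acsl5 did (unadjusted p = 0.0359). The summed level of the synthetases was between 596 and 677 CPM in MA-10 and between 583 and 617 CPM in STARKO1 libraries. Acsl4, which prefers arachidonic acid, was at 367, 385 and 394 CPM in MA-10 and 369, 353 and 348 CPM in STARKO1 libraries, a log2 fold change of -0.10 (standard error 0.168, edgeR adjusted p = 0.682). Its sign turned under upper quartile and library size scaling. Acsl1 was between 40.9 and 47.2 CPM in all libraries and Acsl3 between 142 and 205 CPM. Acsl5 was between 28.3 and 35.8 CPM in MA-10 and between 41.3 and 42.5 CPM in STARKO1 libraries (log2 fold change 0.35, edgeR adjusted p = 0.146).

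Among the carnitine acyltransferases, Cpt1a was the only member called out of 6 (all genes: 9.04%). Cpt2, which releases acyl-CoA on the inner side of the mitochondrial membrane, was at 76.4, 142 and 107 CPM in MA-10 and 64.7, 66.2 and 64.8 CPM in STARKO1 libraries. The Cpt2 order was the reverse of that of Cpt1a and without overlap, at a log2 fold change of -0.73 (standard error 0.238, edgeR adjusted p = 0.0826), or -0.84 without MA-10 replicate 1 (edgeR adjusted p = 0.000694). Per kilobase of exon, Cpt1a was at 0.297, 0.0754 and 0.117 of the Cpt2 level in MA-10 and at 0.526, 0.563 and 0.564 of it in STARKO1 libraries. Cpt1c, the neuronal form, was between 2.52 and 3.44 CPM in MA-10 and between 1.36 and 2.49 CPM in STARKO1 libraries (log2 fold change -0.59, edgeR adjusted p = 0.196). Cpt1b, the muscle form, was between 12.0 and 25.4 CPM in all. Crat, the mitochondrial and peroxisomal carnitine acetyltransferase, was at 25.9, 14.9 and 16.9 CPM against 23.7, 22.5 and 25.2 CPM, and Crot, the peroxisomal octanoyltransferase, at 110, 123 and 115 CPM against 96.9, 83.0 and 98.1 CPM. Neither passed the test with all libraries (edgeR adjusted p = 0.358 and 0.165). Without MA-10 replicate 1 Crat passed and Crot did not (edgeR adjusted p = 0.00237 and 0.0698).

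Several of the acyl-CoA dehydrogenases make the first oxidation of fatty acids in mitochondria, each for a range of chain lengths. Acadsb was the only one called of the 10 tested (all genes: 9.04%). Acadl, the long-chain enzyme, had the highest level per kilobase of any member in STARKO1 cells, and was at 594, 588 and 616 CPM in MA-10 and 639, 623 and 594 CPM in STARKO1 libraries. The cell lines overlapped (log2 fold change 0.05, standard error 0.181, edgeR adjusted p = 0.866). Acadm, the medium-chain enzyme, was at 102, 97.4 and 106 CPM in MA-10 and 142, 137 and 137 CPM in STARKO1 libraries, a small difference without overlap (log2 fold change 0.44, standard error 0.143, edgeR adjusted p = 0.0806). Acads, the short-chain enzyme, was at 159, 188 and 164 CPM against 120, 124 and 129 CPM (log2 fold change -0.45, standard error 0.156, edgeR adjusted p = 0.0912). Neither Acadm nor Acads passed the threshold with edgeR on all libraries. Both passed without MA-10 replicate 1 (edgeR adjusted p = 0.00341 and 0.0112) and with DESeq2 on all libraries (adjusted p = 0.00341 and 0.0289). These fits called 65.7% and 28.4% of all genes. Acadvl, for very long chains, was at 117, 59.9 and 69.9 CPM against 117, 119 and 124 CPM, with MA-10 replicate 1 at the STARKO1 level (log2 fold change 0.54, edgeR adjusted p = 0.178). Without MA-10 replicate 1, Acadvl passed at 0.97 (edgeR adjusted p = 0.000279). Dvl2 shares 42.9% of the Acadvl exon bases on the opposite strand and was between 9.19 and 17.6 CPM in MA-10 and between 20.6 and 21.8 CPM in STARKO1 libraries, and without knowledge of the strand setting these reads cannot be told apart. Acad8 to Acad12, whose products include an isobutyryl-CoA dehydrogenase (Acad8) and an assembly factor of respiratory complex I (Acad9), had log2 fold changes between -0.52 for Acad8 and 0.79 for Acad12 (edgeR adjusted p from 0.168 for Acad8 to 0.495 for Acad9). Acad10 was at 1.84 and Acad12 at 1.49 without MA-10 replicate 1 (edgeR adjusted p = 0.000465 and 0.00173), against 0.78 and 0.79 with all libraries. Acad10 and Acad12 are neighbouring relatives on chromosome 5 between which reads may have been divided, and both were lower in MA-10 replicates 2 and 3, between 0.969 and 1.23 CPM, than in the other 4 libraries, between 2.84 and 3.89 CPM.

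Electrons from the dehydrogenases pass to the flavoprotein of Etfa and Etfb and then to Etfdh, which hands them to the respiratory chain. Etfb was at 155, 399 and 293 CPM in MA-10 and 119, 131 and 124 CPM in STARKO1 libraries, without overlap (log2 fold change -1.18, standard error 0.338, edgeR adjusted p = 0.0662). Etfa was at 125, 263 and 225 CPM against 142, 133 and 129 CPM (log2 fold change -0.60, edgeR adjusted p = 0.169), and Etfdh at 102, 209 and 196 CPM against 142, 117 and 129 CPM (log2 fold change -0.39, edgeR adjusted p = 0.343). In all 3 genes, MA-10 replicates 2 and 3 were above every STARKO1 library and MA-10 replicate 1 was nearer to the STARKO1 mean than to the mean of those 2. With edgeR 0 of the 3 were called (all genes: 9.04%) and 1 had an unadjusted p under 0.05 (all genes: 37.6%). DESeq2 called 1 (all genes: 28.4%). Without MA-10 replicate 1 all 3 passed in the same direction, between 0.00388 for Etfdh and 7.86e-05 for Etfb in edgeR adjusted p. In that fit 65.7% of all genes passed and 31.7% were lower.

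The genes grouped under the later mitochondrial steps gave 0 calls among 10 with edgeR, 5 at an unadjusted p under 0.05 and 3 with DESeq2. The group includes Echdc1, Echdc2 and Echdc3, whose part in these steps was not tested. Of all genes, 9.04% were called with edgeR, 37.6% had such a p and 28.4% were called with DESeq2. Hadha and Hadhb encode the subunits of the trifunctional protein, which carries out the last 3 steps on long chains, and start next to each other on opposite strands (chr5:30118304-30155162 and chr5:30155248-30184593). Hadha was at 400, 274 and 282 CPM in MA-10 and 406, 413 and 428 CPM in STARKO1 libraries, and Hadhb at 69.8, 79.5 and 67.3 CPM against 95.2, 93.8 and 95.3 CPM. Both were without overlap, with log2 fold changes of 0.38 (edgeR adjusted p = 0.225) and 0.39 (edgeR adjusted p = 0.104). The short-chain hydratase gene Echs1 was at 156, 225 and 167 CPM against 128, 138 and 123 CPM (log2 fold change -0.50, standard error 0.195, edgeR adjusted p = 0.117). The dehydrogenase gene Hadh was at 202, 434 and 353 CPM against 213, 208 and 210 CPM (log2 fold change -0.65, standard error 0.290, edgeR adjusted p = 0.151). The thiolase gene Acaa2 was at 148, 97.7 and 88.1 CPM against 183, 175 and 182 CPM, without overlap (log2 fold change 0.69, standard error 0.230, edgeR adjusted p = 0.0852). None of these 5 passed with edgeR on all libraries, while DESeq2 called Hadhb and Acaa2 (adjusted p = 0.0375 and 0.0309). Without MA-10 replicate 1 all 5 passed, with an edgeR adjusted p between 9.74e-05 for Acaa2 and 0.0118 for Echs1. That fit called 65.7% of all genes. Echdc1, of which 75.9% of the exon bases are shared with Rnf146 on the opposite strand, was at 49.2, 93.6 and 84.8 CPM against 58.5, 53.8 and 51.9 CPM. Echdc2 came nearest to the threshold in this group, at 26.2, 20.6 and 22.6 CPM against 14.9, 15.6 and 15.2 CPM, without overlap (log2 fold change -0.60, standard error 0.159, edgeR adjusted p = 0.0593). Echdc3, Decr1 and Eci1 had log2 fold changes of -0.45, -0.09 and 0.38 (edgeR adjusted p = 0.127, 0.669 and 0.197).

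**Figure D4:**
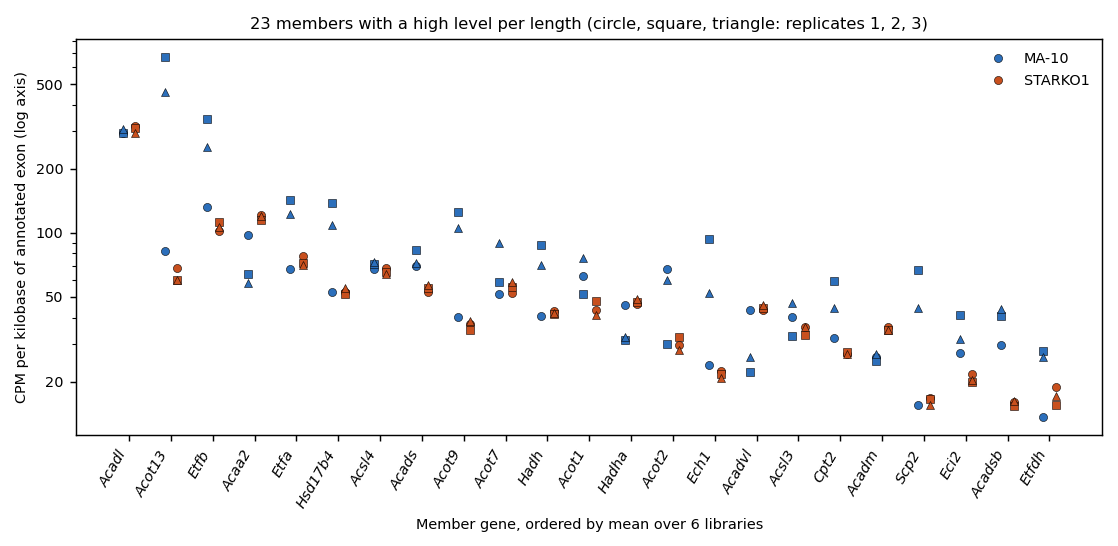
CPM per kilobase of annotated exon, on a log axis, of 23 members with a high level per length, ordered by the mean over 6 libraries. Circles, squares and triangles are replicates 1, 2 and 3. Acadl lies highest in STARKO1 cells, and the MA-10 points of Acot13, Etfb and Hsd17b4 spread widely with replicate 1 lowest.

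Thioesterases split acyl-CoA back to free fatty acid and CoA. Of 13 in the table, 10 were tested, 1 was called (Acot12), and 7 had an unadjusted p under 0.05, 1 higher and 6 lower, beside 9.04% of all genes called and 37.6% at an unadjusted p under 0.05 (15% higher, 22.7% lower). Acot13, a mitochondria-associated long-chain enzyme, was at 60.9, 496 and 341 CPM in MA-10 and 50.7, 44.9 and 44.7 CPM in STARKO1 libraries. The groups did not overlap, but MA-10 replicate 1 was far nearer to STARKO1 than to the other MA-10 libraries, and the log2 fold change of -2.68 had a standard error of 0.681 (edgeR adjusted p = 0.0558). Without that library it was -3.07 (edgeR adjusted p = 1.09e-05). The mitochondrial Acot9 followed the same order, at 91.9, 284 and 238 CPM against 84.8, 79.4 and 87.2 CPM (log2 fold change -1.29, standard error 0.395, edgeR adjusted p = 0.0747). Its relative Acot10 was at most 0.602 CPM and was not tested. Acot11, the other thioesterase with a START domain, was at 0.744, 0.260 and 0 CPM in MA-10 and 1.85, 2.24 and 1.80 CPM in STARKO1 libraries (log2 fold change 2.38, standard error 0.715, edgeR adjusted p = 0.0724). Without MA-10 replicate 1 the log2 fold change of Acot11 was 3.91 (edgeR adjusted p = 0.00101), and DESeq2 called it with all libraries (adjusted p = 0.00634).

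The genes Acot1 to Acot6 form a cluster of close relatives on chromosome 12, so that reads may have been divided between them. Acot1, the cytosolic form, was at 246, 203 and 299 CPM in MA-10 and 170, 187 and 161 CPM in STARKO1 libraries (log2 fold change -0.53, standard error 0.201, edgeR adjusted p = 0.108). Acot2, the mitochondrial form, was at 149, 66.2 and 131 CPM against 65.2, 71.0 and 62 CPM (log2 fold change -0.80, standard error 0.302, edgeR adjusted p = 0.106). The Acot1 groups were separate and those of Acot2 overlapped through MA-10 replicate 2. Acot3 had 7, 7 and 4 counts in MA-10 replicates 1, 2 and 3 and 0 in each STARKO1 library, at least 2.56-fold lower against a floor of 3 counts, and was tested only without the filter on low counts, where it passed. Acot5 had 11, 2 and 1 counts against 0, 1 and 0. Acot4 and Acot6 were between 1.03 and 3.26 CPM in all libraries and overlapped (log2 fold change -0.43 and -1.06, edgeR adjusted p = 0.369 and 0.104). Outside the cluster, the cytosolic Acot7 was at 109, 125 and 190 CPM against 110, 118 and 125 CPM (edgeR adjusted p = 0.428) and the peroxisomal Acot8 at 6.36, 4.77 and 3.79 CPM against 5.72, 5.01 and 5.84 CPM (edgeR adjusted p = 0.677), and both overlapped between the cell lines.

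Genes of the pathway outside the symbol rule were listed as well, and 56 of them were in the table, of which 54 were tested and 3 were differentially expressed (5.56%, beside 9.04% of all genes). Cat, the catalase that breaks down peroxisomal hydrogen peroxide, fell from 258, 453 and 366 CPM in MA-10 to 107, 101 and 96.5 CPM in STARKO1 libraries. The cell lines were far apart, at a log2 fold change of -1.82 (standard error 0.245, edgeR adjusted p = 0.0102), and Cat passed under all 7 other settings and in 2 of the 6 fits without 1 library. Pcca, a subunit of propionyl-CoA carboxylase that takes up the end product of odd-numbered chains, fell (43.0, 34.3 and 41.9 CPM against 23.4, 20.5 and 20.7 CPM, log2 fold change -0.88, standard error 0.162, edgeR adjusted p = 0.0263). Its partner subunit Pccb was at 8.48, 6.07 and 5.37 CPM against 10.2, 11.2 and 10.6 CPM (log2 fold change 0.67, edgeR adjusted p = 0.0802). Nr1h3, the oxysterol receptor LXR alpha, rose from 7.33, 7.20 and 6.96 CPM to 13.2, 12.1 and 13.3 CPM (log2 fold change 0.85, standard error 0.155, edgeR adjusted p = 0.0262). All 3 calls were lost without MA-10 replicate 3 or any STARKO1 library, with an adjusted p of up to 0.092 for Cat, 0.168 for Pcca and 0.161 for Nr1h3. Ppara, the fatty acid receptor that drives many genes of the pathway, was at 28.8, 15 and 17 CPM against 27.9, 30.4 and 28.4 CPM. It did not pass with all libraries (log2 fold change 0.51, standard error 0.263, edgeR adjusted p = 0.197). Without MA-10 replicate 1, which lay within the STARKO1 range, the log2 fold change of Ppara was 0.94 (edgeR adjusted p = 0.000369). The fission genes Dnm1l, Fis1 and Mff gave 0 calls with edgeR and DESeq2, beside 9.04% and 28.4% of all genes. With edgeR 0 had an unadjusted p under 0.05, beside 37.6% of all genes. Without MA-10 replicate 1 all 3 passed as lower (edgeR adjusted p = 0.00383, 0.00425 and 0.0169), in a fit that called 31.7% of all genes lower. The fatty acid transporter gene Slc27a6 had 0 counts in each MA-10 library and 17, 16 and 9 counts in STARKO1 replicates 1, 2 and 3, at least 2.75-fold higher, and did not pass the filter on low counts with all 6 libraries. Without MA-10 replicate 1, 39 of 55 of these genes passed (70.9%, beside 65.7% of all genes).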

How the data were processed

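RNA of MA-10 and STARKO1 cells (3 libraries each) was sequenced. The authors deposited estimated counts per gene, not normalized, with replicates kept apart. Per the submitters' processing notes, STAR 2.6.1d, Partek and mm10 were used. The counting program, annotation and strand setting are not given in the sources used here. Values that were not whole occurred in 54.2% of the 14774 genes, as when reads are divided between genes. Coordinates are of GRCm38: 14677 genes matched GENCODE by symbol and chromosome, and 14579 had the same start and end once 1 was taken from the deposited end.

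Rounded counts were tested with edgeR 4.0.16 in R 4.3.3 (filterByExpr, TMM, quasi-likelihood test, no replicate block) over all genes, with Benjamini-Hochberg adjustment and a threshold of 0.05. The standard error is the log2 fold change divided by the square root of F. The common biological coefficient of variation was 0.291. A floor of 3 counts, which covers counting error only, was used where a cell line had 3 counts or fewer in every library. Alternatives were DESeq2 1.42.0, upper quartile and library size scaling, no filter, a replicate block, gene length offsets, a minimum of 10 counts per library, an adjusted p under 0.10 and leaving out each library. Scripts were run on simulated counts with less spread than these data and no outlying library, which checks the code only. Promoters came from RefSeq (GRCm38.p6), in which 59 members matched. Tables and figures used Python 3.11.15, pandas 2.3.3 and matplotlib 3.10.9.

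Members and gene lists were chosen with earlier results of these data known. Genes are named if called, if among 47 listed members of known role, if at the floor in 1 cell line, if uncalled without overlap and with a log2 fold change of at least 1 in size, or if called among the listed other pathway genes, besides Star. Other genes named were chosen after their values were seen. Values of some single members are not reported here.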

Additional observations from a re-analysis of the deposited data

How the results depend on the processing

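The count of members called was 21 with DESeq2, 3 with upper quartile scaling, 1 with scaling by library size alone, 3 with at least 10 counts in every library, 1 with the replicate block and 21 at an adjusted p under 0.10, and between 0 and 48 when 1 library was left out. For all genes it was 3395 with DESeq2, 330 with library size alone, 695 with at least 10 counts, 234 with the replicate block and 3471 at an adjusted p under 0.10, and between 89 and 7990 without 1 library. For the other pathway genes it was 10 with DESeq2, 1 with library size alone, 1 with the replicate block and 10 at an adjusted p under 0.10, and between 0 and 39 without 1 library. The 7990, 48 and 39 came without MA-10 replicate 1. No filter on low counts and gene length offsets left the counts within 1.5 times. The cause of these shifts was not tested.

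Library size alone shifted the median log2 fold change of all genes by 0.43 and upper quartile scaling by 0.15, and 18 of 72 members changed sign under the former. Under library size alone the log2 fold changes of Abcd3, Abcd4, Acads, Acot7, Acsl3, Acsl4, Crot, Etfdh and Pex19 turned to 0.08, 0.08, 0.01, 0.21, 0.24, 0.35, 0.13, 0.15 and 0.42. Upper quartile scaling turned Acsl4 to 0.05 and Pex19 to 0.10, and no filter turned Pex19 to 0.00. When 1 library was left out, Abcd4 ranged from -0.48 to 0.04, Acot7 from -0.35 to 0.01, Acot8 from -0.02 to 0.46, Ehhadh from -0.02 to 0.58 and Pex19 from -0.11 to 0.08 (0.06 without STARKO1 replicate 1). None of these turned values passed the threshold.

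The deviations of same-numbered libraries had correlations of -0.0346, 0.0907 and -0.0162 for numbers 1, 2 and 3, against a mean of -0.00579 for other pairs. The STARKO1 libraries differed little from each other (Pearson's r between 0.995 and 0.996). This check therefore cannot decide whether a shared number marks a pairing. With the replicate block Acot12 remained called and Cpt1a, Acox3, Acadsb and Eci3 had adjusted p of 0.0845, 0.0915, 0.0699 and 0.0578. Gene length and the deviation of MA-10 replicate 1 had a Spearman correlation of 0.206 over the 72 members and 0.195 over 11884 genes, as a description. With length offsets all 5 calls were kept and Decr2 added. With 3 libraries per cell line, what depth limits was not tested beyond the floor of 3 counts.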

Other observations

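Per kilobase of annotated exon, the subunit pair Hadha and Hadhb had a ratio of 3.37 ± 0.880 in MA-10 and 3.31 ± 0.0859 in STARKO1 libraries (SD, n = 3 each), and the MA-10 values of 4.33, 2.6 and 3.16 lay on both sides of the STARKO1 values. Etfa was at 0.511, 0.418 and 0.486 of the Etfb level in MA-10 and at 0.762, 0.647 and 0.663 of it in STARKO1 libraries, without overlap. Acsl4 was at 16.1, 18.3 and 17.6 times the Acsl1 level in MA-10 and at 15.2, 15.6 and 15.1 times in STARKO1 libraries. These ratios were not tested.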
